A study of Mus musculus with 2 samples.

Results

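Megakaryocyte and platelet genes were read in Lin(-)Sca-1(+)c-kit(+) (LSK) cells, the bone marrow fraction that holds hematopoietic stem cells and multipotent progenitors. The 9 genes were Pf4, Ppbp, Itga2b, Gp1ba, Gp1bb, Gp5, Gp9, Treml1 and Vwf, out of 21360 genes that could be named on the array. Their members are all probes whose transcript identifier maps to one of these symbols, which gave 11 of 55661 probes: 3 for Gp1bb and 1 for each of the 8 other genes. The genes were picked from the known genes of this lineage with their processed intensities on these same arrays already seen, so the values are a description and carry no test.

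LSK cells came from C57BL/6J mice in 2 groups, nondiabetic mice and mice made diabetic with streptozotocin (STZ), a toxin that destroys the insulin-producing β cells of the pancreas. Each group is 1 array made from 3 mice, with 8.3 ng of total RNA per array. No transgene, deletion or other treatment is named for either group. The mice were female per the labels, whereas the study describes males in its STZ experiments. Age, the glucose level and the time after STZ are not given in the sources used here for the mice behind the arrays. Effects of high glucose and of the toxin itself cannot be told apart in this design. The cells were sorted after density separation and removal of dead cells, by antibodies to a lineage panel, c-kit and Sca-1. None of the 9 genes encodes a protein named as a sort marker. The arrays shared 1 slide and 1 scan.

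Megakaryocytes are the large bone marrow cells that shed platelets into the blood. They descend from stem and progenitor cells of the LSK fraction, and some stem cells carry transcripts of this lineage. A platelet holds its factors in granules, among them the chemokines platelet factor 4 and pro-platelet basic protein and the adhesive protein von Willebrand factor. On its surface, the glycoprotein Ib-IX-V complex catches von Willebrand factor on a damaged vessel wall, and the integrin αIIbβ3 then binds fibrinogen and joins platelets to each other.

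The unit throughout is the processed intensity, the scanner software's background-corrected brightness of a spot in arbitrary units. The error beside an intensity or a ratio is the software's own error of that spot, and it covers neither the mice, the sorts nor the amplification. A probe was counted as detected where the software marked it as well above background. Log2 ratios are diabetic over nondiabetic after each array was scaled to its 75th percentile, which was 168 on the nondiabetic and 182 on the diabetic array. The lowest intensities well above background were 10.2 and 10.1, negative control spots had medians of 2.35 and 2.32, and no spot was saturated. Detected spots made up 62.7% and 63.9% of the spots. In these bulk RNA samples, fewer cells of a type and less RNA per cell cannot be told apart.

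Of the 9 genes, 7 were detected on both arrays and 2, Ppbp and Gp5, on neither. The leading probe, the brightest of a gene, gave log2 ratios from -0.12 for Vwf to 1.52 for Gp9. The median was 0.35 over the 7 genes, against 0.02 over all genes with a ratio or a bound. The log2 ratio was above 0 for 6 of the 7, and 51.2% of all genes lay above 0. Higher in diabetic cells by 2-fold or more was 1 of the 7, Gp9, and 0 of the 7 were lower by as much. Over all 15192 genes with a ratio or a bound, 11.0% were higher by 2-fold or more and 10.1% lower. By more than 2 software errors, 3 of the 7 were higher, Pf4, Gp9 and Treml1, where 24.6% of all genes detected on both arrays were. None of the 7 leading probes was lower by that measure, where 21.5% of those genes were. The other 4 genes, Itga2b, Gp1ba, Gp1bb and Vwf, lay within 2 errors of no difference.

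**Figure D1:**
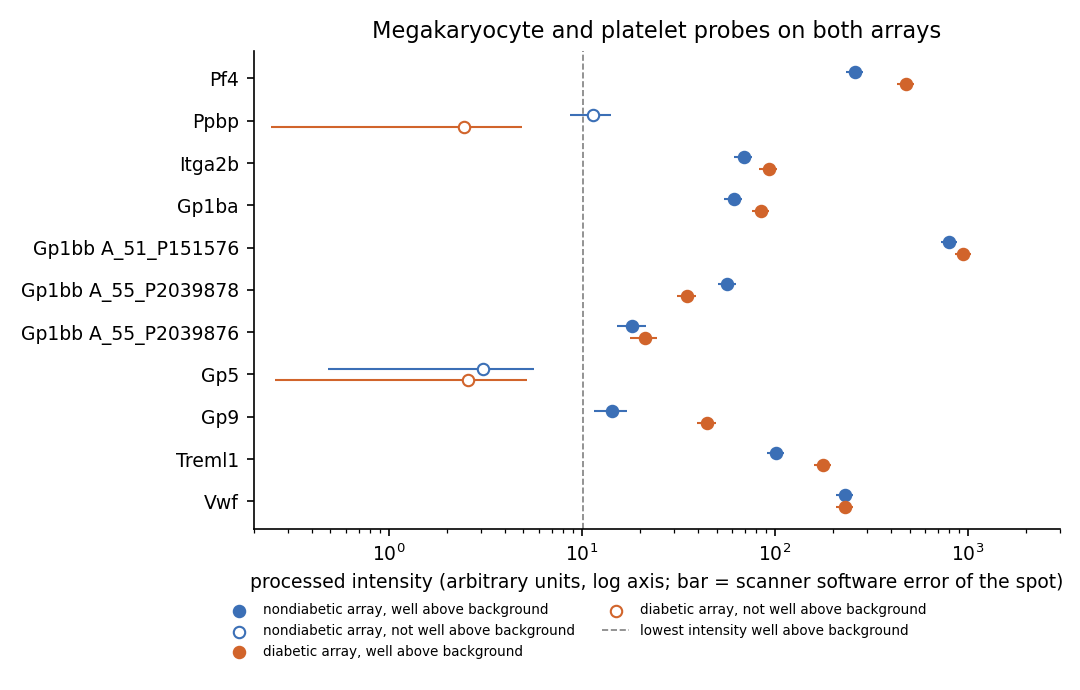
Processed intensity (log axis, arbitrary units) of each of the 11 probes on the nondiabetic (blue) and the diabetic (orange) array, with the software's error of the spot as bars (clipped where they would reach 0), open points for probes not well above background and a dashed line at the lowest intensity well above background. Ppbp and Gp5 are open on both arrays, Gp9 moves from 14.4 to 44.9, and the points of Vwf coincide.

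Pf4 encodes platelet factor 4 (CXCL4), a chemokine stored in platelet α-granules that binds heparin. Its single probe (A_51_P441426, transcript NM_019932) read 261 ± 26.2 in nondiabetic and 478 ± 47.9 in diabetic cells. The diabetic value was the higher, and the bars of the spots did not overlap. The log2 ratio was 0.75 ± 0.20, a 1.69-fold difference. Of all genes, 84.0% had a lower ratio, and of the genes in the same class of signal, the brightest, 90.8% did. The classes were cut at the tertiles of mean signal over detected probes, and in the brightest one 4.67% of genes were higher by 2-fold or more and 3.33% lower. Because factors of the GATA and ETS families are known to act at megakaryocyte promoters, the 250 bases before the annotated start of Pf4 are shown, with matches to GATAA or GGAAG on either strand in capitals.

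Pf4, chr5:90772185-90772434 (GRCm38.p6, plus strand): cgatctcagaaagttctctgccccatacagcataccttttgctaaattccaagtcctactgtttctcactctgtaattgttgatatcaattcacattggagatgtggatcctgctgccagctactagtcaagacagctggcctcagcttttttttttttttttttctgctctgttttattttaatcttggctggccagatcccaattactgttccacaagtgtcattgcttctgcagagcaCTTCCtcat

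Ppbp, next to Pf4 on chromosome 5, encodes pro-platelet basic protein, the precursor of chemokines that attract neutrophils. Its probe (A_51_P428372, NM_023785) read 11.4 ± 2.73 on the nondiabetic and 2.46 ± 2.47 on the diabetic array. Neither value was well above background, so no ratio is given. Other CXC chemokine genes lie around this pair. Cxcl5, on the other side of Ppbp, read 46.7 and 32.2, with a log2 ratio of -0.65. Cxcl3, Cxcl15, Cxcl1 and Cxcl2, on the other side of Pf4, were undetected on both arrays. Pf4 was thus the single gene in this run of 7 chemokine genes that was detected with a higher diabetic value.

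Itga2b encodes integrin αIIb (CD41), which pairs with β3 as the fibrinogen receptor and also marks early megakaryocyte progenitors. Its probe (A_52_P459564, NM_010575) read 69.2 ± 7.37 in nondiabetic and 93.1 ± 9.64 in diabetic cells. The bars did not overlap before scaling, but the log2 ratio of 0.31 ± 0.21 was within 2 errors of 0, and 68.1% of all genes had a lower one. Its partner Itgb3 (integrin β3) had 2 detected probes, of which the leading one read 763 and 1159 (log2 ratio 0.49 ± 0.20) and the other had a log2 ratio of -0.23. The probes of the β3 chain thus fell on both sides of no difference.

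Of the glycoprotein Ib-IX-V complex, Gp1ba, Gp1bb and Gp9 were detected and Gp5 was not. Gp1ba encodes the chain that carries the binding site for von Willebrand factor. Its probe (A_55_P1981804, NM_010326) read 61.4 ± 6.55 in nondiabetic and 84.7 ± 8.77 in diabetic cells, a log2 ratio of 0.35 ± 0.21. This lay within 2 errors of 0, and 69.8% of all genes had a lower ratio.

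Gp9 encodes the small chain that the complex needs to reach the cell surface. Its probe (A_51_P153995, NM_018762) read 14.4 ± 2.86 in nondiabetic and 44.9 ± 5.06 in diabetic cells. The log2 ratio was 1.52 ± 0.33, a 2.88-fold higher scaled value, the highest of the 7 genes. The nondiabetic value lay close to the lowest intensity well above background, 10.2, and 94.5% of all genes but 91.1% of genes of the same dim class had a lower ratio. In that class, 15.0% of genes were higher by 2-fold or more and 15.3% lower, and the median SD between repeated spots of a probe was 0.24 on the log2 scale, against 0.07 in the brightest class. When the intensities were corrected by the normexp model with an offset of 50, the log2 ratio of Gp9 was 0.45 and 0 of the 9 genes were higher by 2-fold or more.

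Both of these genes hold GATA-type and ETS-type matches in the 250 bases before their starts, shown with the same capitals.

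Gp1ba, chr11:70638872-70639121 (GRCm38.p6, plus strand): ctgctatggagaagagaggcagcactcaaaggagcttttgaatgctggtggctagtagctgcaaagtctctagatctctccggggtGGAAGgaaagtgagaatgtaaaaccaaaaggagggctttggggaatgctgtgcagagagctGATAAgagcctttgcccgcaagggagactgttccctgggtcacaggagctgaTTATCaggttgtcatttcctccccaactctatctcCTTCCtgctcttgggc

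Gp9, chr6:87777820-87778069 (GRCm38.p6, plus strand): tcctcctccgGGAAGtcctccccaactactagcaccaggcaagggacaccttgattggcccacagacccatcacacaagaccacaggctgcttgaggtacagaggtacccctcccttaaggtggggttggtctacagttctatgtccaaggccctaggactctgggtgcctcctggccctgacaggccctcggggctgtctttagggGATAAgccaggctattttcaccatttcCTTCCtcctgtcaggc

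Gp1bb encodes the β chain, which is linked to the Gp1ba chain by disulfide bonds, and it was the one gene with several probes. The leading probe (A_51_P151576, NM_001001999) read 805 ± 80.5 and 950.4 ± 95.1, with a log2 ratio of 0.12 ± 0.20. A second probe (A_55_P2039878, NM_010327) read 56.8 ± 6.09 and 35.2 ± 4.13, with a log2 ratio of -0.81 ± 0.23. The third probe (A_55_P2039876, NM_001001999) read 18.3 ± 3.18 and 21.2 ± 3.33, with a log2 ratio of 0.09 ± 0.34. The probes disagreed in direction, and 1 of the 3 was lower by more than 2 errors, a measure met by 21.9% of all probes detected on both arrays. Their log2 ratios spanned 0.93. Of 457 genes with 3 detected probes, 313 (68.5%) also held both signs, and the median span was 1.06. Gp1bb overlaps Septin5 in the RefSeq annotation, and the Septin5 probe read 45.8 and 34.7 (log2 ratio -0.52). Which transcript each Gp1bb probe reports was not tested.

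Gp5 encodes the chain of the complex that thrombin cleaves. Its probe (A_51_P439996, NM_008148) read 3.08 ± 2.60 and 2.59 ± 2.60, near the median of the negative controls on both arrays.

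Treml1 encodes TREM-like transcript 1, a receptor of α-granule membranes found on platelets and megakaryocytes. Its probe (A_51_P279062, NM_027763) read 101 ± 10.3 in nondiabetic and 178 ± 17.9 in diabetic cells, a log2 ratio of 0.69 ± 0.21 (1.62-fold). The diabetic value was the higher and the bars did not overlap, and 82.6% of all genes and 79.7% of genes of the same middle class had a lower ratio. In that class, which also holds Itga2b, Gp1ba and Vwf, 13.3% of genes were higher by 2-fold or more and 11.8% lower. Of its neighbours in the same receptor cluster, Treml2 had a log2 ratio of 0.36 and Treml4 one of -0.27. The adjacent Trem2 read 21.8 in nondiabetic cells and was not detected in diabetic cells, with a log2 bound of -1.08, opposite in direction to Treml1.

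Vwf encodes von Willebrand factor, which megakaryocytes and endothelial cells make and which also marks stem cells with a platelet bias. Its probe (A_51_P103397, NM_011708) read 230.8 ± 23.2 in nondiabetic and 230.6 ± 23.2 in diabetic cells. The intensities were the same to within 1 unit, and the scaled log2 ratio was -0.12 ± 0.21. Cd9, the next gene on chromosome 6 and a tetraspanin of the platelet surface, read 708 and 1795 (log2 ratio 1.22 ± 0.20). Cd9 thus differed between the arrays, while Vwf did not beyond its error. Of 6 genes listed for partners of von Willebrand factor and for related proteases and clearance receptors, 3 had a ratio, none past 2-fold, and 2 were detected on the diabetic array alone, Stab2 with a bound of at least 1.09-fold and Asgr2 with one of at least 1.15-fold. The brightest of the 6 genes, Scarb1, read 61.7 and 78.7 (log2 ratio 0.23).

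**Figure D2:**
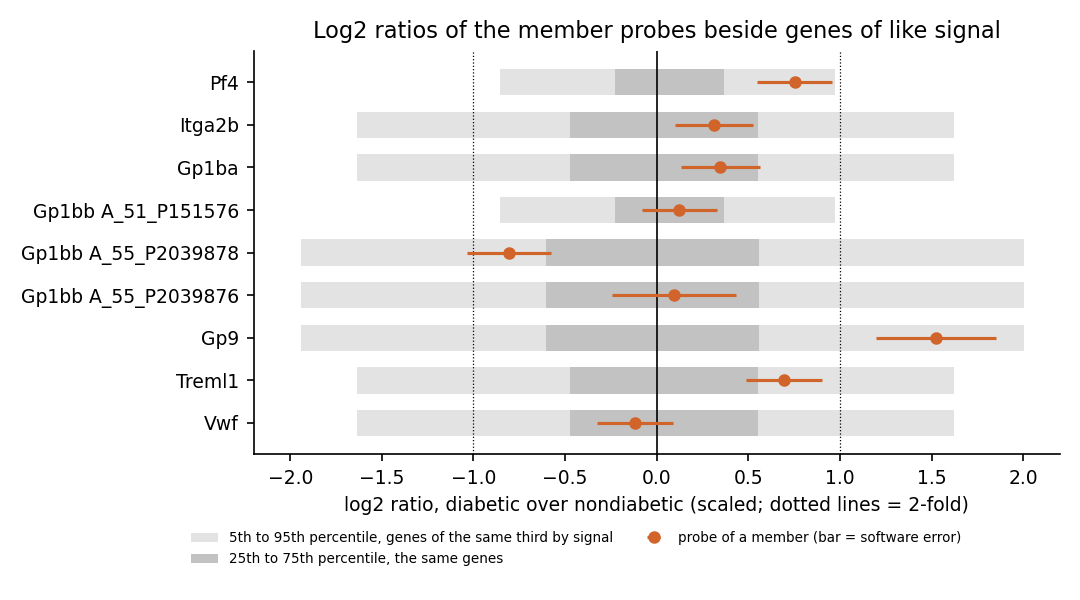
Log2 ratio, diabetic over nondiabetic, of the 9 probes detected on both arrays (points, with the software's error as bars) over the range of all genes of the same class of signal (light grey from the 5th to the 95th percentile, dark grey from the 25th to the 75th). Pf4, Gp9 and Treml1 lie above the dark band, 1 Gp1bb probe lies below it, and no probe lies outside the light band.

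Among the 9 detected probes, 7 had a log2 ratio above 0 and 2 below, and 3 were higher and 1 lower by more than 2 errors, where 22.2% of all probes were higher and 21.9% lower. Higher by 2-fold or more was 1 of the 9 probes and 0 were lower, against 11.2% of all probes in each direction. Every one of the 9 ratios lay within the central range, from the 5th to the 95th percentile, of genes with like signal. Summed over the leading probes of the 9 genes, the intensity before scaling was 1558 in nondiabetic and 2065 in diabetic cells. Gp1bb made up 805 and 950.4 of these sums and Pf4 261 and 478. The sums hold the difference in array brightness (75th percentiles 168 and 182) and include Ppbp and Gp5, undetected on both arrays.

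**Figure D3:**
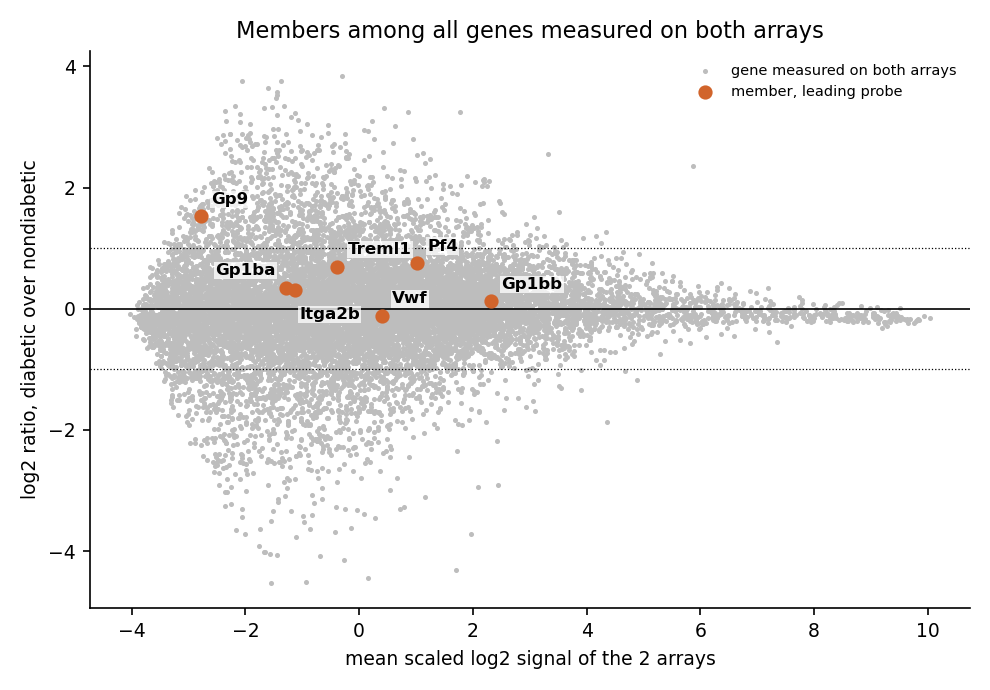
Log2 ratio, diabetic over nondiabetic, against the mean scaled log2 signal for all genes detected on both arrays (grey) and for the 7 detected megakaryocyte and platelet genes (orange), with dotted lines at a 2-fold difference. Gp9 lies at the dim end, where ratios spread most, and Gp1bb at the bright side, while Vwf lies near the line of no difference.

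Matches to short motifs were counted in windows of 300 bases, from 250 before to 50 after the annotated start, which were found in the RefSeq table (GRCm38.p6) for 8 of the 9 genes, all but Vwf. The letters GATAA, a core bound by GATA factors, were found on either strand in 4 of the 8, Pf4, Gp1ba, Gp5 and Gp9, and in 25.4% of all 32851 windows. In Pf4 the match lies after the start, at bases 38 to 42, outside the stretch printed above. In Gp1ba the matches begin at bases -103 and -51, in Gp9 at base -43, and in Gp5 at bases -93 and -77. The longer AGATAAG, which holds GATAA, was in 0 of the 8 and in 3.04% of all windows. The letters GGAAG, a core bound by ETS factors, were in 8 of the 8 and in 71.4% of all windows, and AGGAAG, which holds GGAAG, was in 6 of the 8 and in 35.4%. Of the 4 genes with a GATAA match, Pf4, Gp1ba and Gp9 were detected and Gp5 was not. Of the 4 without one, Itga2b, Gp1bb and Treml1 were detected and Ppbp was not. A match describes these letters in the window and is no evidence of binding.

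**Figure D4:**
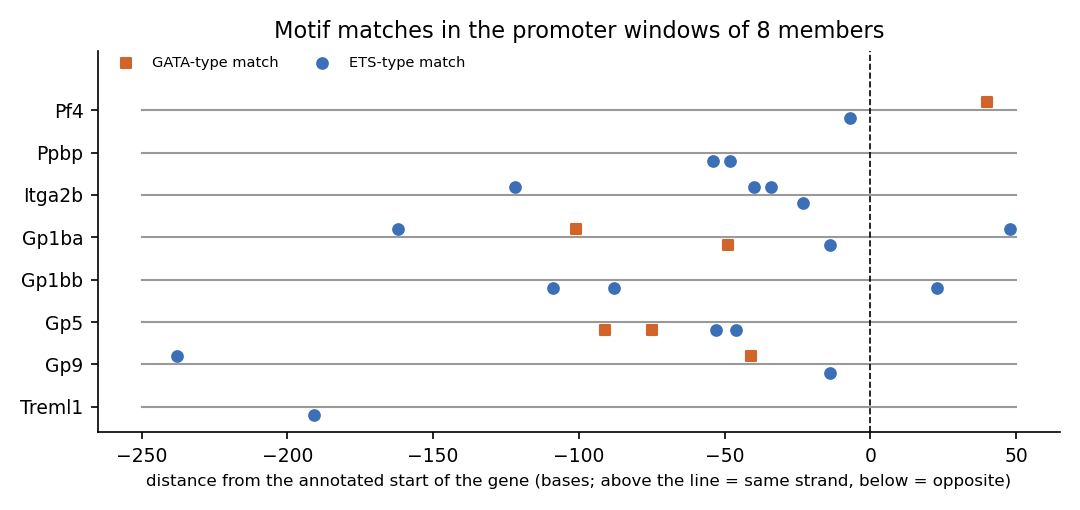
Positions of matches to the GATA-type core (orange squares) and the ETS-type core (blue circles) relative to the annotated start of 8 genes, in bases, with matches on the strand of the gene drawn above each line and on the opposite strand below it. Each gene has an ETS-type match, and 4 have a GATA-type match.

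The other genes of the lineage were read from lists of platelet receptors, granule and clotting factors, transcription factors, cytoskeleton and signalling genes, and partners of von Willebrand factor, which hold 76 genes without the 9. Of these, 73 had a ratio or a bound. Higher by 2-fold or more were 6 (8.22%) and lower were 6 (8.22%), where all genes had 11.0% and 10.1%. The log2 ratio was above 0 for 42 of the 73 (57.5%), and the median was 0.14. Medians of lists take the 5 bounds among these genes at their bound. The counts past 2-fold moved with the processing, to 9 higher and 6 lower with no filter on dim probes, where all 76 genes had a value. They were 3 and 4 with normexp, and 6 and 5 with the mean over a gene's probes. The shares over all genes moved as well. They were 11.4% and 10.7% with no filter, 3.96% and 3.29% with normexp, and 10.6% and 9.55% with the mean over probes.

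Among 15 platelet receptor genes, 13 had a ratio or a bound, of which 2 were higher by 2-fold or more and 0 lower, with a median of -0.13. Tbxa2r, the thromboxane receptor, read 51.8 in nondiabetic and 135 in diabetic cells (log2 ratio 1.27 ± 0.22), and the other was Cd9. Clec1b, the podoplanin receptor CLEC-2, read 130.0 and 128 by its leading probe (-0.13 ± 0.21), while its other probes were undetected on both arrays. Gp6, the collagen receptor, read 10.8 and 9.01 and was undetected on both arrays. Of the 15 receptor genes, 12 were detected on both arrays and 2, Gp6 and P2ry12 (2.49 and 7.22), on neither.

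All 17 granule and clotting genes had a ratio, 2 of them higher by 2-fold or more and 3 lower, with a median of 0.14. Higher were Mmrn1 (multimerin, which carries factor V), at 135 and 299 (1.03 ± 0.21), and Vipas39 (needed to form α-granules), at 53.1 and 169 (1.55 ± 0.22). Lower was Thbs1 (thrombospondin 1), at 189 and 81.8 (-1.33 ± 0.21). Lower was also F13a1 (the A chain of factor XIII), at 487 and 171 (-1.62 ± 0.20), whose second probe also had the lower diabetic value. Clu (clusterin) was the lowest, at 148 and 31.1 (-2.37 ± 0.23). Genes for factors that platelets carry thus had differences in opposite directions, with Pf4 and Mmrn1 higher and Thbs1, F13a1 and Clu lower. Stxbp2, a fusion protein of granule release and the gene of highest intensity, had a log2 ratio of 0.14 ± 0.20.

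Of 17 transcription factors, all with a ratio, 1 was higher by 2-fold or more and 2 were lower, with a median of 0.09. Fli1, an ETS factor of megakaryocyte genes, read 220 in nondiabetic and 549 in diabetic cells (1.20 ± 0.20). Gata1, the GATA factor of megakaryocyte and erythroid cells, read 150 and 108 (-0.59 ± 0.21), and Gata2 read 727 and 950.3 (0.27 ± 0.20). Gata1 was thus lower by more than 2 errors, Gata2 lay within 2 errors of 0, and neither was past 2-fold. Ets1 read 204 and 49.0 (-2.17 ± 0.21), but its second probe was not well above background in nondiabetic cells and gave a bound of at least 3.68-fold higher. Mrtfa, a coactivator of megakaryocyte maturation, read 264 and 71.6 (-2.00 ± 0.21), and its second probe had a log2 ratio of 0.91. Probes of Ets1 and Mrtfa thus went against each other. Nfe2, a factor of platelet release, read 1262 and 1927 (0.49 ± 0.20). Gfi1b (0.09 ± 0.21), Runx1 (0.21 ± 0.22) and Lyl1 (-0.06 ± 0.20), which had the highest intensity of the list, lay within 2 errors of 0.

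Of 21 cytoskeleton and signalling genes, 1 was higher by 2-fold or more and 1 lower, with a median of 0.17. Arhgef12, a guanine nucleotide exchange factor for RhoA, read 26.3 in nondiabetic and 153 in diabetic cells (2.42 ± 0.25). Fyb, an adaptor of integrin signalling, read 346 and 163 (-1.21 ± 0.21), and its second probe had a log2 ratio of -1.76. Myh9, the nonmuscle myosin of platelet shedding and the gene of highest intensity, read 6493 and 9732 (0.47 ± 0.20). Tubb1, the β1-tubulin of the platelet rim, read 3.36 in nondiabetic cells, where it was not well above background, and 18.0 in diabetic cells, a bound of at least 1.63-fold.

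**Figure D5:**
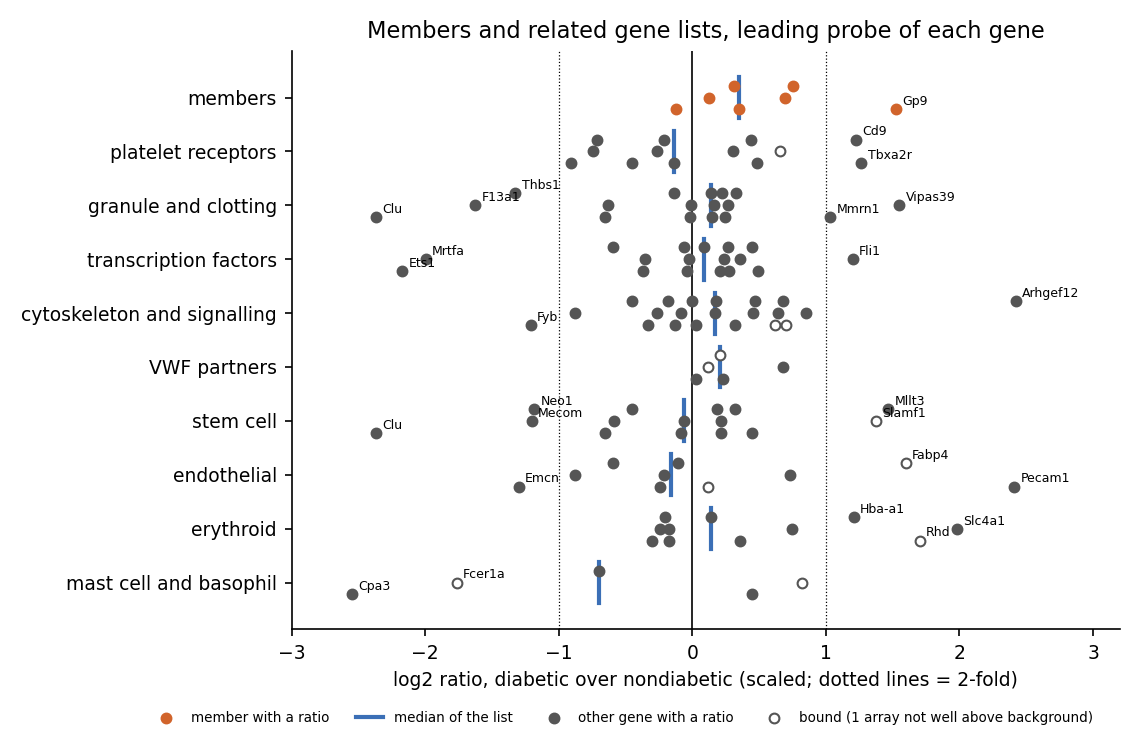
Log2 ratio, diabetic over nondiabetic, of the leading probe of each gene with a ratio (filled) or a bound (open) in each list, with the list's median as a blue bar, dotted lines at 2-fold and the names of genes past them. The 7 detected megakaryocyte and platelet genes (orange) have a median of 0.35, the 5 related lists under them have medians from -0.13 to 0.21 (bounds taken at their bound), and each list but that of partners of von Willebrand factor has genes on both sides of 0.

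Markers of other cell types that a sort could hold were read beside these values. Of 12 erythroid markers, 11 had a ratio or a bound, 6 of them above 0 and 5 below, with a median log2 ratio of 0.14. Higher in diabetic cells by 2-fold or more were 3 and lower were 0, where all genes had 11.0% and 10.1%. The 3 were Hba-a1 (an α-globin, 1984 and 4967), Slc4a1 (band 3, 124 and 529) and Rhd (a blood group protein, at least 3.25-fold). Klf1, the erythroid factor, read 19.1 and 16.9, and Ermap, the brightest by mean log2 signal, had a log2 ratio of -0.17. Hbb-bt, a β-globin, read 923 and 1681 (0.75 ± 0.20). Before scaling, the summed intensity of the list was 10031 in nondiabetic and 14067 in diabetic cells, and 8047 and 9100.2 without Hba-a1. These sums hold the difference in array brightness (75th percentiles 168 and 182), and the sum without Hba-a1 still holds Hbb-bt. The part of erythroid cells in the values of Pf4, Gp9 and Treml1 was not tested.

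Vwf is also an endothelial gene, and of 12 endothelial markers 8 were detected on the nondiabetic and 10 on the diabetic array. Tie1 (251 and 231), Eng (198 and 117) and Plvap (93.0 and 86.9) were detected on both arrays, while Cdh5 (VE-cadherin, 2.52 and 2.47) and Lyve1 were detected on neither. Pecam1, which platelets and stem cells also carry, read 162 and 936 (2.41 ± 0.21). Fabp4 was higher by at least 3.02-fold, and Emcn read 111 and 49.2 (-1.30 ± 0.22). Kdr, the brightest by mean log2 signal, read 844 and 848 by its leading probe (log2 ratio -0.11). The second Kdr probe, at 3.27 and 2.68, was undetected on both arrays. The list's summed intensity before scaling was 1716 and 2368, but without Pecam1 it was 1554 and 1432, and the median log2 ratio was -0.16. The sums also hold the difference in array brightness.

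Of 8 mast cell and basophil markers, 4 were detected on each array and 5 had a ratio or a bound. Lower by 2-fold or more were 2 of the 5, where 10.1% of all genes were. The 2 were Cpa3 (145 and 26.9, log2 ratio -2.54 ± 0.23) and Fcer1a (at least 3.39-fold). Prss34 read 116 and 78.0 (-0.70 ± 0.21). Above 0 were Hdc, at 34.8 and 51.6 (0.45 ± 0.24), and Gzmb, with a bound of at least 1.77-fold. Mcpt8, Ms4a2 and Mcpt4 were undetected on both arrays. Before scaling, and so with the difference in array brightness, the summed intensity was 344 in nondiabetic and 189 in diabetic cells. Without Cpa3 it was 199 and 162. The markers of this list thus had ratios and bounds in both directions.

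The genes of the sort gate were as follows. Kit read 4635 in nondiabetic and 4735 in diabetic cells, and Ly6a (Sca-1) read 475 and 701 (log2 ratios -0.09 ± 0.20 and 0.44 ± 0.20). Of the lineage markers, Cd8a and Ms4a1 were undetected on both arrays, while Cd3e (238 and 198) and Itgam were detected. The brightest Itgam probe read 34686 and 35189, and its other probes read 284 and 142, and 111 and 49.2. Kit and Sca-1 were detected on both arrays, and RNA of some lineage markers was detected as well.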

How the data were processed

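The RNA of LSK cells was hybridised to 2 Agilent 1-colour arrays, 1 per condition. The authors deposited scanner files of Agilent Feature Extraction 11.5.1.1, whose processed intensity is corrected for background within an array and not normalized between arrays. They also deposited a table of processed intensity that equals the scanner values times 1 constant per array. The array grid refers to mm9, and no coordinate of it was used. The software and build are given per the file headers.

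Log2 intensities minus each array's 75th percentile were averaged per probe, without spots marked as non-uniform or as outliers (314 spots, none of the 11 probes). A ratio was given where a probe was well above background on both arrays. Where it was so on 1 array, a bound was given against the lowest such value of the other array, or the dim probe's own value where that was higher. The probe with the highest mean signal stood for a gene. Probes were named through unversioned transcript identifiers in a RefSeq table of GRCm38.p6, which matched 31845 of 59305 non-control spots (53.7%). Promoter windows came from RefSeq, same assembly. Vwf has no entry there.

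No test was made, since each condition has 1 array, and that number limits the precision. The members, lists, limits and alternatives were chosen with earlier results of these data known. Genes named outside the members are those at least 2-fold different in a list, its gene of highest intensity, 15 genes fixed by name, and, chosen after their values were seen, chromosomal neighbours and P2ry12, Lyve1, Tie1, Eng, Plvap, Stab2, Asgr2, Tubb1, Cd3e, Cd8a, Ms4a1, Itgam, Mcpt8, Ms4a2 and Mcpt4. Sums of marker lists without 1 gene, and the values of Hbb-bt, Prss34, Hdc and Gzmb, were added after seeing the data. A few genes under this rule are not reported here. The code was tested on simulated data. The normexp alternative used the median spot signal, because the files used here hold no mean signal. Python 3.11.15, numpy 2.4.6, pandas 2.3.3, statsmodels 0.14.6, matplotlib 3.10.9, R 4.3.3 and limma 3.58.1 were used.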

Additional observations from a re-analysis of the deposited data

How the results depend on the processing

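No paired analysis was possible because there is 1 array per group, so no replicate could be left out either. Each value was recomputed with normexp (offset 50, median spot signal), quantile normalization, centring on the median, loess, no filter on dim probes, probes detected on both arrays only, the mean over a gene's probes, the authors' table and a floor. With normexp, 0 of the 9 genes and 0 of the 11 probes were higher by 2-fold or more, in place of 1 and 1, their median log2 ratio was 0.16 in place of 0.35, and 3 of the wider list were higher by as much, in place of 6, and 4 lower, in place of 6. Log2 ratios under normexp were 0.64 for Pf4, 0.50 for Treml1, 0.45 for Gp9, 0.16 for Itga2b, 0.15 for Gp1ba and -0.37 for the second Gp1bb probe, and over all genes 3.96% were higher by 2-fold or more and 3.29% lower. With no filter on dim probes, 1 gene and 1 probe, Ppbp (log2 ratio -2.33), were lower by 2-fold or more in place of 0, Gp5 had -0.37, and 9 of the wider list were higher in place of 6. Over all genes, 11.4% were then higher by as much, in place of 11.0%. With the mean over probes, Gp1bb had -0.20. Without the filter the median over all genes was -0.09 and with the floor -0.14, against 0.02, and with the floor Ppbp had -0.30 and Gp5 -0.14. The causes were not tested. Leaving normexp out, Gp9 stayed between 1.51 and 1.57, Pf4 between 0.72 and 0.77, Treml1 between 0.68 and 0.71 and Vwf between -0.14 and -0.10. Of the 12 wider-list genes past 2-fold, 7 were also past it under normexp, 10 with the mean over probes and 12 under each other setting. Signal close to background limits Gp9, Ppbp and Gp5.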

Other observations

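Genes of stem cells, and of the stem cells that lean to the platelet lineage, were also read. Of 15 such genes, all had a ratio or a bound, with a median log2 ratio of -0.06. Higher in diabetic cells by 2-fold or more were 2 of the 15 and lower were 3, where all genes had 11.0% and 10.1%. Slamf1 (CD150, a marker of long-term stem cells) was not well above background in nondiabetic cells (5.29) and read 28.7 in diabetic cells, a bound of at least 2.59-fold. Mllt3, a stem cell regulator that also acts in megakaryocyte development, read 53.6 and 161 (1.47 ± 0.21). Lower were Mecom (182 and 86.1, -1.20 ± 0.21), Neo1 (36.6 and 17.5, -1.18 ± 0.30) and Clu. The second Mecom probe had a log2 ratio of -0.16. Kit had the highest mean log2 signal of this list, though not the highest intensity on the diabetic array.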
